A study of Mus musculus with 3 samples.

Results

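Cxcl9, Cxcl10 and Cxcr3 were followed across the marrow cells of 3 droplet single-cell RNA libraries of mouse bone marrow niche cells. Cxcl9 and Cxcl10 encode secreted chemokines, and Cxcr3 encodes the receptor that both bind. These 3 genes, of 27998 listed in the deposited gene table, were found by their symbols and were chosen with their levels in these libraries already known, so their values are given as a description. Each group is 1 library. The aGVHD group (acute graft-versus-host disease) consisted of CB6F1 females, a cross of BALB/c and C57BL/6, that were sub-lethally irradiated with 2 doses of 4.0 Gy. At 4 hours after irradiation they were given 5000000 nucleated marrow cells by vein, taken from B6.SJL mice (CD45.1+), together with 60000000 spleen cells of female C57BL/6 mice. The BMT group (bone marrow transplantation) had the same recipient cross, irradiation and marrow cells without the spleen cells. The WT group was untreated CB6F1. In all 3 groups the sort discarded cells positive for CD71, CD45 or a mix of lineage antibodies and kept live cells by Calcein AM and DAPI, so most blood cells had been taken out before the RNA was captured. The sources used here do not give the number of mice pooled per library or the days between transfer and collection.

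Cxcl9 and Cxcl10 are classical interferon-induced genes. Interferon gamma acts through its receptor and the JAK kinases on transcription factors that bind GAS elements. Type I interferons act mainly through a complex with STAT2 and IRF9, which binds interferon-stimulated response elements (ISRE), and NF-kB adds to the induction of both chemokines by TNF and other signals. CXCR3 is carried by activated and effector T cells and by NK cells, and in graft-versus-host disease its ligands are known as attractants of donor T cells into inflamed tissue.

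Both ligand genes lie beside each other on chromosome 5, on the minus strand of GRCm38. Cxcl9 (ENSMUSG00000029417) spans chr5:92321347-92328079 and Cxcl10 (ENSMUSG00000034855) spans chr5:92346638-92348889, and 18558 bases separate them. Cxcr3 (ENSMUSG00000050232) lies on the minus strand of the X chromosome, chrX:101731535-101734269. Art3, on the plus strand at chr5:92331827-92414628, overlaps the whole of Cxcl10, and whether the counting used strand is not stated in the sources used here. Art3 itself had 12, 41 and 15 UMIs (unique molecular identifiers, 1 per captured RNA molecule) in the LepR stromal-like cells of the aGVHD, BMT and WT libraries, where Cxcl10 had 6603, 11373 and 665.

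The 250 bases before each ligand's transcription start are printed from RefSeq (GRCm38.p6, minus strand, 5′ to 3′) because the known inducers of both genes act on elements in such stretches. Capitals mark matches to the motifs searched.
Cxcl9 chr5:92328080-92328329: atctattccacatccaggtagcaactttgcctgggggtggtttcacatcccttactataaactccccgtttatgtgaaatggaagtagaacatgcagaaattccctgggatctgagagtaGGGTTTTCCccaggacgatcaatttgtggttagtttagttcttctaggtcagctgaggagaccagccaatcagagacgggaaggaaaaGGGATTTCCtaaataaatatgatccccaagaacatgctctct
Cxcl10 chr5:92348890-92349139: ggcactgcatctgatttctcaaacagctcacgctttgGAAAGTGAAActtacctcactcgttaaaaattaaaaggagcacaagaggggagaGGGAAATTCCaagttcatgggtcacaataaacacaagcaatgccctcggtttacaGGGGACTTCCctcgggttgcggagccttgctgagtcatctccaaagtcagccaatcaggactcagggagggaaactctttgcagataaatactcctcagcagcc

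The ISRE letters, GAAA and again GAAA with 2 free letters between, matched at 1 place in the Cxcl10 stretch, 213 to 204 bases before the start, and not in the Cxcl9 stretch. Of 32851 mouse promoter stretches of the same length searched on both strands, 978 (2.98%) held this motif. The GAS letters, TTC and GAA with 3 free letters between, found in 2306 of these stretches (7.02%), matched in neither. The NF-kB letters, GGG and TTCC with 2 free letters between, found in 1635 stretches (4.98%), matched in 2 places in Cxcl9, at 130 to 122 and 42 to 34 bases before the start, and at 1 place in Cxcl10, at 103 to 95 bases. The longer form with 3 free letters, found in 1527 stretches (4.65%), matched in 2 places in Cxcl10, at 159 to 150 and at 104 to 95 bases, the second overlapping the shorter match, and not in Cxcl9. A match is only a run of letters in the reference, which is C57BL/6, and the BALB/c alleles of the recipients were not read.

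Cells were barcodes that reached 1000 UMIs and 500 genes and stayed under 10% mitochondrial UMIs. This left 5568 aGVHD, 3621 BMT and 7129 WT cells, with median depths of 6977.5, 6932 and 7355 UMIs, and pairs of libraries shared 8 to 11 cell barcodes. Cells were placed by marker gates: 4126 aGVHD, 3012 BMT and 5503 WT cells passed 1 gate, 540, 277 and 743 passed more than 1 and are called mixed, and 902, 332 and 883 passed none. LepR stromal-like cells, the Lepr- and Cxcl12-bearing reticular stroma of the marrow, numbered 342 in aGVHD, 536 in BMT and 1002 in WT, with median depths of 11650.5, 14380.5 and 5775 UMIs. All 7 of their markers had UMIs in each library, and the markers summed to 19226, 26019 and 32490 CPM (UMIs of a gene per 1000000 UMIs of the class) in aGVHD, BMT and WT. Endothelial-like cells numbered 1114, 744 and 512, had UMIs of all 10 of their markers in each library, and had median depths of 2695, 4468.5 and 3801.5 UMIs. As each group is 1 library, replicate spread is unknown and no difference was tested. Intervals are exact 95% Poisson or Clopper-Pearson intervals, or exact intervals of a ratio given the summed counts, and cover counting error only.

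Cxcl9 was, in both transplanted libraries, foremost a gene of the LepR stromal-like cells. Their Cxcl9 level was 10832 CPM in aGVHD, 9178 CPM in BMT and 142 CPM in WT, from 44636, 68323 and 868 UMIs. The level in aGVHD was 1.18-fold (1.17 to 1.19) that in BMT and 76.3-fold (71.3 to 81.7) that in WT, and the level in BMT was 64.6-fold (60.4 to 69.2) that in WT. The difference from WT was thus far larger in both transplanted libraries than the difference between them, and these comparisons share libraries. At least 1 Cxcl9 UMI was found in 336 of 342 aGVHD cells (98.3%), 524 of 536 BMT cells (97.8%) and 131 of 1002 WT cells (13.1%).

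**Figure D1:**
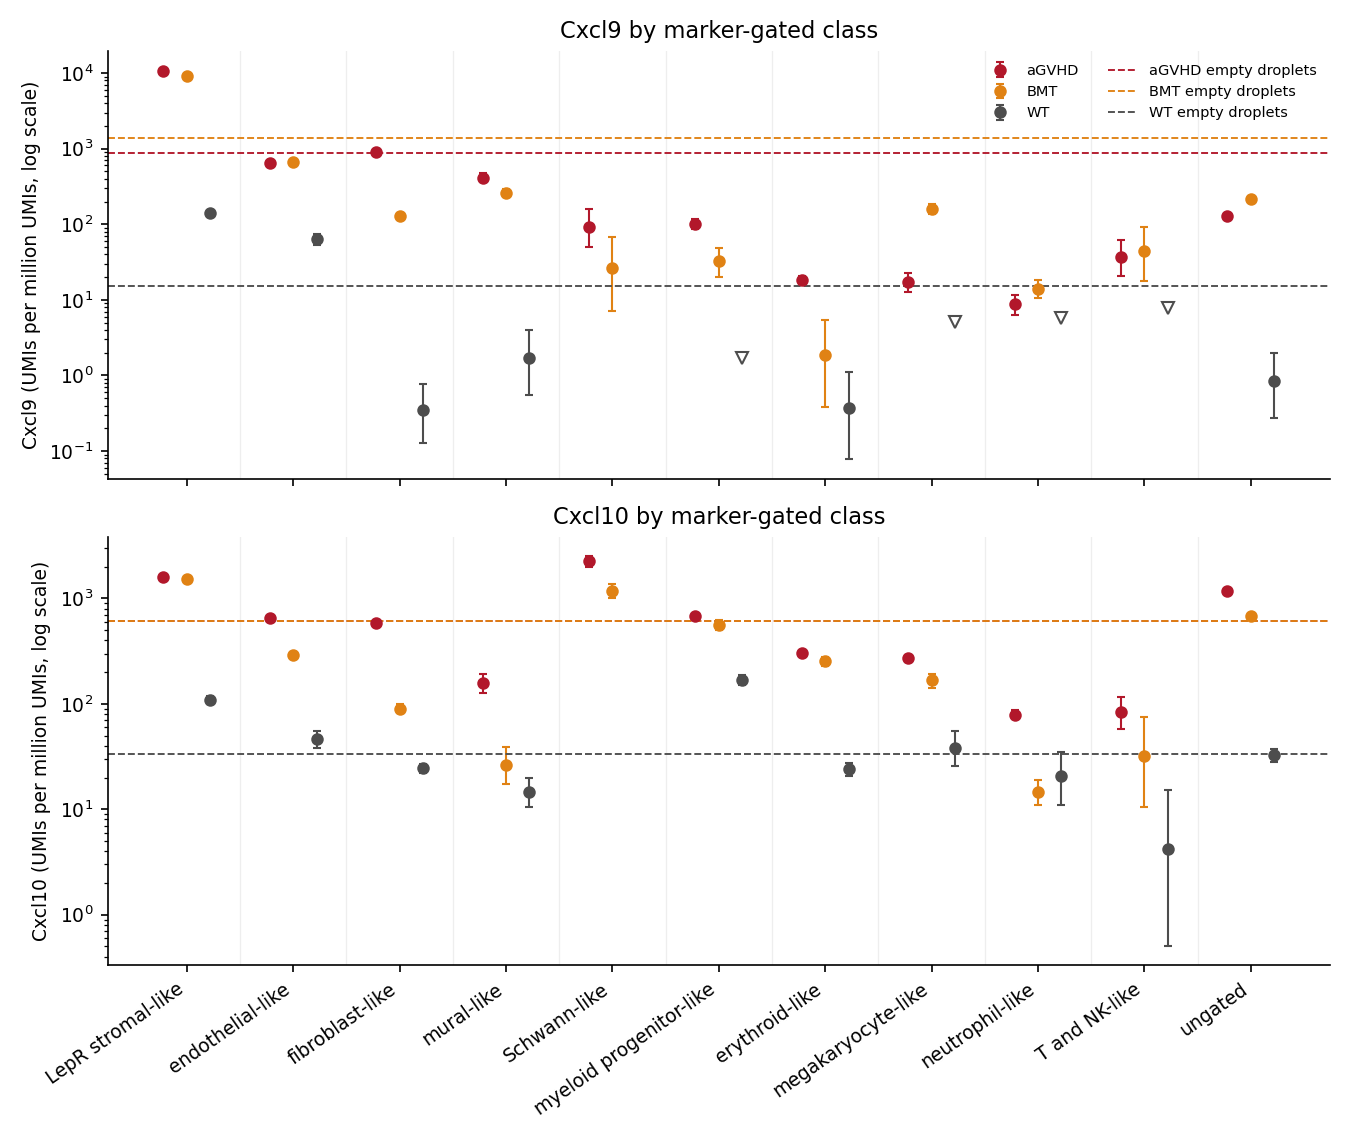
Cxcl9 and Cxcl10 levels (CPM, log axis) by marker-gated cell class in the aGVHD, BMT and WT libraries, with exact Poisson 95% intervals, open triangles for the upper limit where no UMI was found and dashed lines for each library's empty droplets. Classes of under 20 cells in a library are not drawn. Cxcl9 in LepR stromal-like cells reaches 10832 CPM (aGVHD) and 9178 CPM (BMT), against 142 CPM in WT, and no other marker-gated class of at least 20 cells reaches 1000 CPM of Cxcl9.

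Free RNA was measured in empty droplets, barcodes of at most 100 UMIs. They held Cxcl9 at 889 CPM in aGVHD, 1395 CPM in BMT and 15.4 CPM in WT, so that the LepR stromal-like cells stood 12.2, 6.58 and 9.19 times above their own library's droplets. Neutrophil-like cells, which are not known as a main source of Cxcl9, had a Cxcl9 UMI in 38 of 646 cells (5.88%) in aGVHD, 48 of 717 (6.69%) in BMT and 0 of 83 in WT. For WT a floor of 3 cells would be a share of 3.61%, which is not an interval limit. The median depths of neutrophil-like cells were 7072.5, 4268 and 5889 UMIs. The share of LepR stromal-like cells with Cxcl9 was far above this in aGVHD and BMT. From neutrophil and haemoglobin genes, free RNA was estimated at 7.68%, 1.06% and 8.31% of the LepR stromal-like UMIs in aGVHD, BMT and WT, which would bring 68.2, 14.8 and 1.28 CPM of Cxcl9.

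The spread from cell to cell was wide. To remove differences of depth, each cell was thinned to 2000 UMIs, which left 332 aGVHD, 520 BMT and 961 WT cells of this class. The share with Cxcl9 was then 96.4% in aGVHD, 93.3% in BMT and 8.43% in WT. The median thinned cell had 17 Cxcl9 UMIs in aGVHD, 13.5 in BMT and 0 in WT, the tenth percentile was 2.1, 1 and 0, the ninetieth was 48.8, 44 and 0, and the highest cell had 107, 122 and 40. The distributions of aGVHD and BMT cells therefore covered nearly the same range. The SD was 18.5, 19.2 and 2.24 UMIs around means of 21.5, 18.9 and 0.312, so the variance was 15.9, 19.6 and 16.1 times the mean, where counting alone gives a factor of 1. In WT, the tenth of cells with the most Cxcl9 held 96.5% of its UMIs in the class, against 35.7% in aGVHD and 39.4% in BMT before thinning. Cxcl9 in WT was thus held by few cells, with 10 of 1002 reaching 20 UMIs, and in the transplanted libraries by nearly all.

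**Figure D2:**
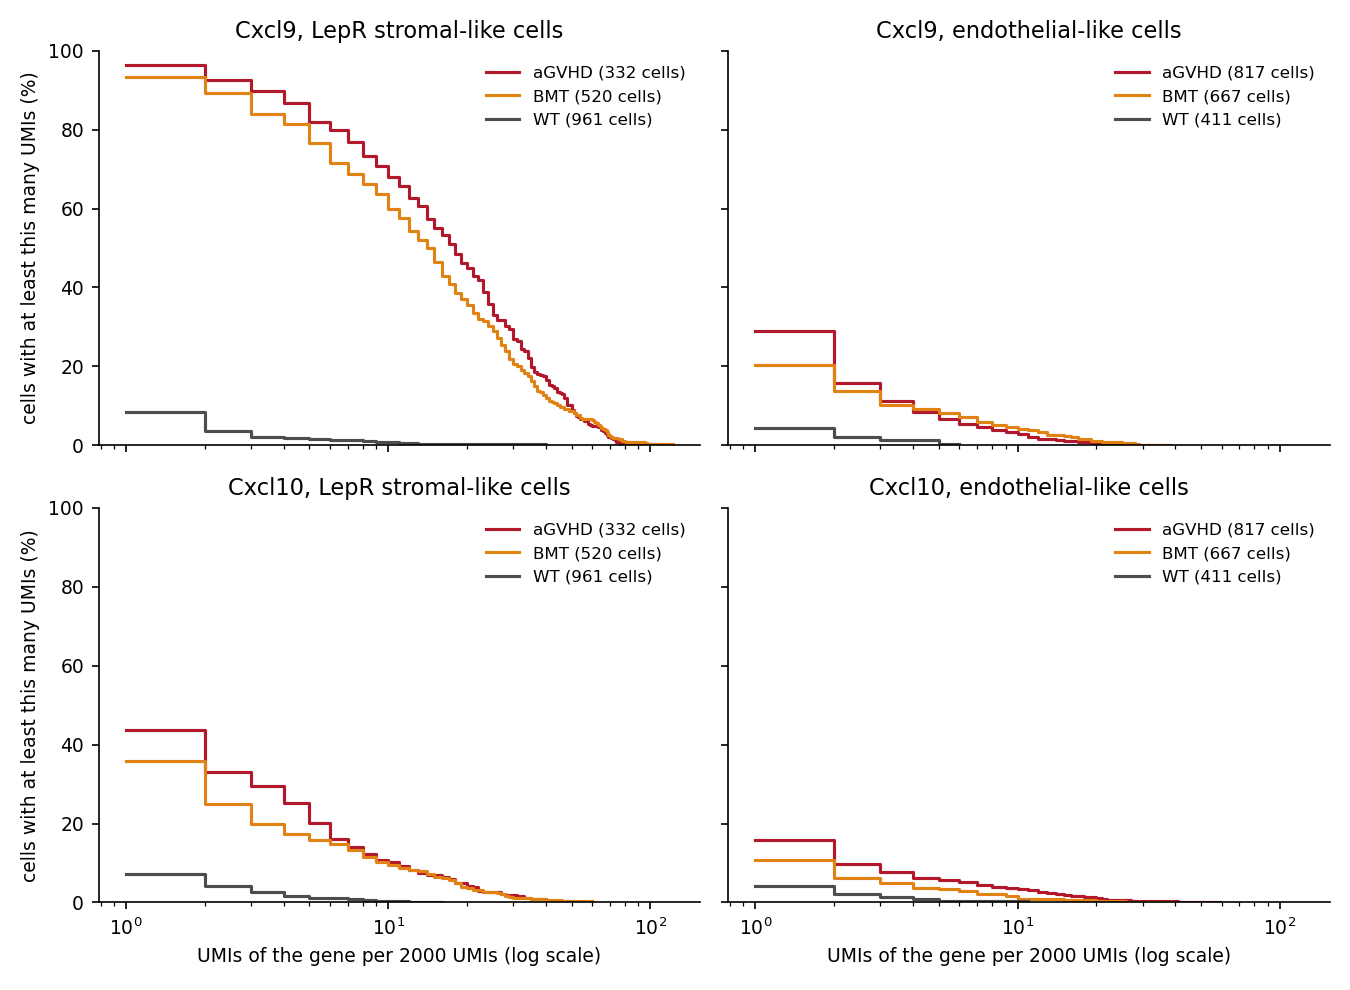
Share of cells (percent) with at least a given number of Cxcl9 (top) or Cxcl10 (bottom) UMIs (log axis), each cell thinned to 2000 UMIs, in LepR stromal-like (left) and endothelial-like cells (right) of the aGVHD, BMT and WT libraries. In LepR stromal-like cells the Cxcl9 curves start at 96.4% in aGVHD, 93.3% in BMT and 8.43% in WT, and the Cxcl10 curves at 43.7%, 35.8% and 7.28%.

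LepR stromal-like cells held 68.8% of the Cxcl9 UMIs of all called cells in aGVHD, 83.8% in BMT and 76.3% in WT. Mixed barcodes held another 21.1%, 10.03% and 5.54%, and 96.0%, 98.4% and 66.7% of these UMIs were in mixed barcodes that also passed the LepR stromal gate. Over all called cells Cxcl9 stood at 1219 CPM in aGVHD, 2159 CPM in BMT and 16.2 CPM in WT. Taken over the whole library, the ratio of aGVHD to BMT was 0.564 (0.559 to 0.570), the opposite direction to the ratio of 1.18 within LepR stromal-like cells. Those cells made up 6.14% of the called aGVHD cells, 14.8% of the BMT cells and 14.1% of the WT cells.

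**Figure D3:**
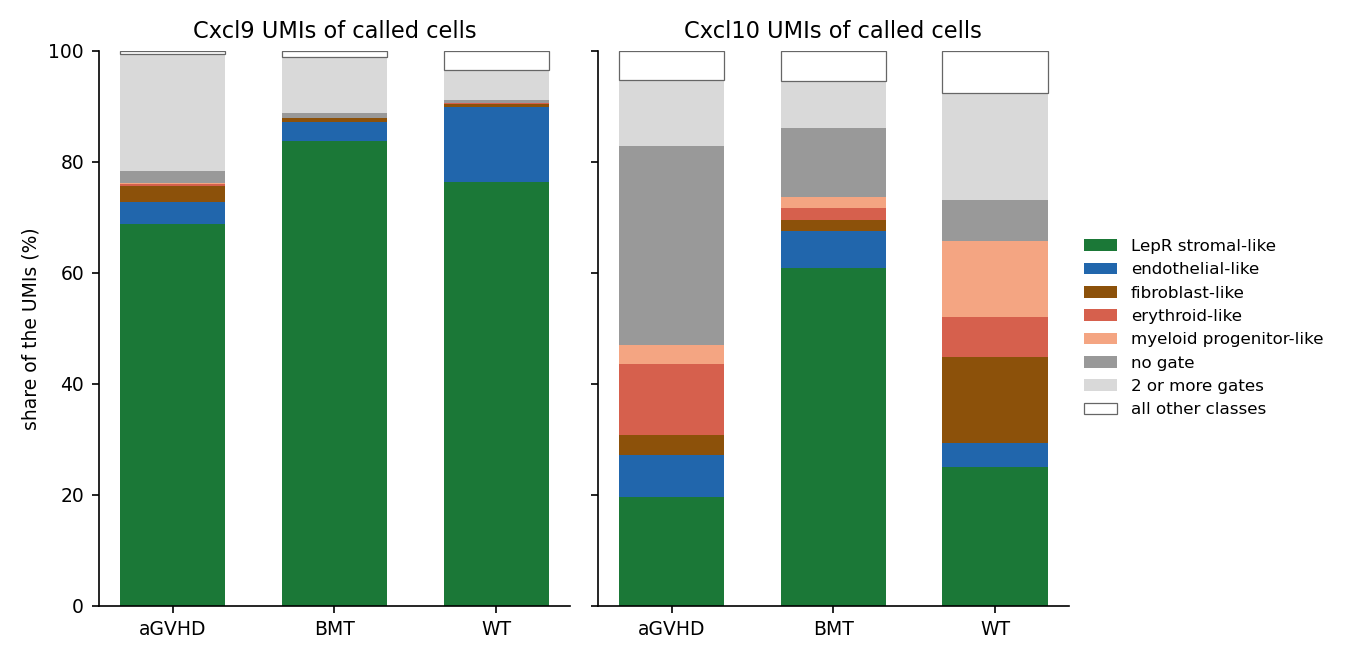
Share of each library's Cxcl9 and Cxcl10 UMIs (percent of UMIs in called cells) held by 5 cell classes, by cells in no gate, by mixed barcodes (2 or more gates) and by all other classes, as stacked bars for aGVHD, BMT and WT. LepR stromal-like cells hold 68.8% (aGVHD), 83.8% (BMT) and 76.3% (WT) of Cxcl9, but 19.6%, 60.9% and 25.02% of Cxcl10.

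Among the other stromal and vascular classes, Cxcl9 was carried by few cells. Endothelial-like cells had 653 CPM in aGVHD, 668 CPM in BMT and 63.7 CPM in WT, from 2558, 2808 and 154 UMIs. The ratio of aGVHD to BMT was 0.978 (0.926 to 1.03), that of BMT to WT 10.5 (8.92 to 12.4), and that of aGVHD to WT 10.3 (8.71 to 12.1). These levels were 0.735, 0.479 and 4.12 times those of the empty droplets, and 14.6, 16.5 and 49.2 times what the free RNA estimated in the class would bring. A Cxcl9 UMI was found in 338 cells (30.3%) in aGVHD, 211 (28.4%) in BMT and 33 (6.45%) in WT, and after thinning in 28.9%, 20.4% and 4.38%. The cells with at least 20 Cxcl9 UMIs numbered 29, 47 and 2 and held 59.5%, 74.4% and 45.5% of the class's Cxcl9. In these 29 aGVHD and 47 BMT cells the LepR stromal markers summed to 182 and 342 CPM, against 2616 and 2273 CPM in endothelial-like cells without Cxcl9, while the endothelial markers stood at 6796 and 8628 CPM. The summed markers were thus lower in the Cxcl9-rich cells, but Lepr itself was found in 2 of 29 Cxcl9-rich aGVHD cells, against 15 of 776 without Cxcl9, and in 15 of 47 in BMT, against 40 of 533. The Cxcl9-rich cells were deeper, with median depths of 6750 UMIs in aGVHD and 8199 in BMT, against 2492.5 and 4144 without Cxcl9.

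Fibroblast-like cells were the class in which aGVHD and BMT differed most in Cxcl9 among the classes with over 200 cells in both libraries. Their level was 905 CPM in aGVHD, 129 CPM in BMT and 0.353 CPM in WT, from 1812, 532 and 6 UMIs in 89 of 317, 43 of 320 and 6 of 1686 cells. The ratio of aGVHD to BMT was 7.02 (6.37 to 7.74). The WT level was below the free RNA estimate of 0.473 CPM. The aGVHD and BMT levels were 99.5 and 18.7 times their free RNA estimates, while the empty droplets held 889 CPM in aGVHD and 1395 CPM in BMT. Of the aGVHD UMIs, 81.5% came from 22 cells with at least 20 each. In these 22 cells the fibroblast markers summed to 4487 CPM and the LepR stromal markers to 1497 CPM, against 11944 and 566 CPM in the 228 fibroblast-like aGVHD cells without Cxcl9. Lepr, the leptin receptor, was found in 5 of the 22 and Adipoq, the adipokine that marks the same stroma, in none. In BMT, 8 cells with at least 20 Cxcl9 UMIs each held 81.6% of the UMIs. Their fibroblast markers summed to 77706 CPM and their LepR stromal markers to 1662 CPM, against 25352.5 and 708 CPM in the 277 cells without Cxcl9. The part of mixed cell identity in the fibroblast-like difference was not tested.

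Mural-like cells, the smooth muscle cells and pericytes of vessel walls, had 415 CPM of Cxcl9 in aGVHD, 262 CPM in BMT and 1.70 CPM in WT. A single cell held 67.8% of the UMIs in aGVHD and 36.6% in BMT, and without these cells the levels were 146 CPM in aGVHD and 172 CPM in BMT, which turns the direction. Erythroid-like cells had 18.3, 1.86 and 0.376 CPM and neutrophil-like cells 8.78, 13.96 and 0 CPM in aGVHD, BMT and WT, so blood-gated cells carried little Cxcl9. Blood gates without the plasma gate together held 0.844% of Cxcl9 in aGVHD, 0.458% in BMT and 2.99% in WT. Macrophages are a known source of Cxcl9, but the gate found only 2 aGVHD, 2 BMT and 12 WT monocyte- and macrophage-like cells, with 2, 94 and 29 Cxcl9 UMIs.

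In order of level, Cxcl9 in aGVHD was highest in LepR stromal-like cells, then in fibroblast-like, endothelial-like and mural-like cells, whose intervals did not overlap. Myeloid progenitor-like (101 CPM) and Schwann-like cells (92.7 CPM) followed and did not differ beyond counting error, but without the highest cell of each these levels were 15.7 and 45.3 CPM. In BMT the order was LepR stromal-like, endothelial-like and mural-like, followed by megakaryocyte-like (161 CPM), fibroblast-like (129 CPM) and chondrocyte-like cells (112 CPM), with neighbours that overlapped. Without their highest cell the megakaryocyte-like and chondrocyte-like BMT levels were 12.7 and 3.91 CPM. In WT only the LepR stromal-like and endothelial-like cells stood above 2 CPM among classes of at least 20 cells.

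Cxcl10 had a broader distribution over cell classes. In LepR stromal-like cells it stood at 1602 CPM in aGVHD, 1528 CPM in BMT and 109 CPM in WT, from 6603, 11373 and 665 UMIs. The level in aGVHD was 1.05-fold (1.02 to 1.08) that in BMT and 14.7-fold (13.6 to 16.0) that in WT, and the level in BMT was 14.0-fold (13.0 to 15.2) that in WT. Both transplanted libraries again stood close to each other and far above WT. A Cxcl10 UMI was found in 217 of 342 aGVHD cells (63.5%), 271 of 536 BMT cells (50.6%) and 119 of 1002 WT cells (11.9%).

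After thinning, 43.7% of aGVHD, 35.8% of BMT and 7.28% of WT LepR stromal-like cells had Cxcl10, with means of 3.17, 2.78 and 0.213 UMIs and a variance 14.1, 18.0 and 5.93 times the mean. The median thinned cell had 0 in every library, the ninetieth percentile was 9.9, 9 and 0, and the highest cell had 43, 60 and 16 UMIs. The tenth of cells with the most Cxcl10 held 67.7% of its UMIs in aGVHD, 76.0% in BMT and 97.3% in WT before thinning. Cxcl10 was thus concentrated in fewer cells of this class than Cxcl9 in aGVHD and BMT. The empty droplets held 604 CPM of Cxcl10 in aGVHD, 611 CPM in BMT and 33.2 CPM in WT, which the LepR stromal-like cells exceeded 2.65, 2.50 and 3.28 times. Neutrophil-like cells, as a background, had a Cxcl10 UMI in 8.67% of cells in aGVHD, 4.88% in BMT and 6.02% in WT. By depth, the Cxcl10 level of LepR stromal-like cells was 1016, 1714 and 1701 CPM in the shallowest, middle and deepest of 3 equal bins of aGVHD cells. The BMT bins had 904, 1421 and 1758 CPM and the WT bins 131, 141 and 78.8 CPM. The shallowest bin was thus the lowest in both transplanted libraries, and in aGVHD the middle and deepest bins were alike. The part of depth in the level was not tested.

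Endothelial-like cells had 651 CPM of Cxcl10 in aGVHD, 291 CPM in BMT and 46.3 CPM in WT, from 2549, 1223 and 112 UMIs in 184, 116 and 28 cells. Here aGVHD was 2.24-fold (2.09 to 2.40) BMT and 14.1-fold (11.6 to 17.1) WT, and BMT was 6.28-fold (5.17 to 7.69) WT. Cxcl10 thus differed between aGVHD and BMT in endothelial-like cells, where Cxcl9 did not beyond counting error, while in LepR stromal-like cells neither ligand's ratio exceeded 1.18. These levels were 1.08, 0.476 and 1.40 times those of the empty droplets and 21.4, 16.4 and 16.7 times the free RNA estimate. Of 3 equal bins by depth, the deepest had the highest level in both transplanted libraries, with 977 CPM for aGVHD and 422 CPM for BMT, against 131 and 40.8 CPM in the shallowest.

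Fibroblast-like cells had 579 CPM of Cxcl10 in aGVHD, 90.2 CPM in BMT and 24.4 CPM in WT. These levels were below the 604, 611 and 33.2 CPM of the empty droplets, and 93.7, 29.9 and 24.1 times the free RNA estimate. Between aGVHD and BMT the Cxcl10 ratio was 6.42 (5.71 to 7.24), close to the 7.02 of Cxcl9 in the same cells. In aGVHD 17 cells with at least 20 UMIs held 72.6% of the Cxcl10 UMIs, and in BMT 7 such cells held 60.2%. Schwann-like cells, the glia of marrow nerves, had the highest aGVHD level of any class of at least 20 cells, 2240 CPM, against 1185 CPM in BMT. Their numbers were small: 314 UMIs in 16 of 36 aGVHD cells, 179 UMIs in 7 of 34 BMT cells and 2 UMIs in 1 of 8 WT cells. A single BMT cell held 130 of the 179 UMIs, and without it the BMT level was 337 CPM. Without the highest aGVHD cell the aGVHD level was 1674 CPM. Schwann-like cells carried little Cxcl9, with 13, 4 and 0 UMIs in aGVHD, BMT and WT.

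Cells of blood gates carried Cxcl10 in all 3 libraries. Myeloid progenitor-like cells had 675 CPM in aGVHD, 562 CPM in BMT and 168 CPM in WT, which was the highest WT level of any class of at least 20 cells. A Cxcl10 UMI was found in 47 of 77, 15 of 26 and 28 of 77 of them (61.0%, 57.7% and 36.4%), at median depths of 22098, 23919.5 and 26346 UMIs. The share was above that of the neutrophil-like cells in each library, which were shallower. Beside 604 and 611 CPM in the empty droplets, the myeloid progenitor-like levels of aGVHD and BMT were near their droplets. The markers of this class summed to 3217, 7402 and 17689 CPM in aGVHD, BMT and WT. In BMT, the 7 cells with at least 20 Cxcl10 UMIs had 522 CPM of these markers, against 6018 CPM without Cxcl10. In aGVHD these values were 3131 and 4452 CPM, and in WT 22111 and 16271 CPM. The part of cell identity in these levels was not tested. Erythroid-like cells had 301 CPM in aGVHD, 254 CPM in BMT and 24.1 CPM in WT, with a UMI in 297 of 1075, 27 of 88 and 67 of 515 cells. These levels were below the 604, 611 and 33.2 CPM of the empty droplets of their own libraries, and the part of free RNA in them was not tested. Megakaryocyte-like cells had 269.6 CPM in aGVHD, 167 CPM in BMT and 38.4 CPM in WT, and without each library's highest cell 214, 109.6 and 14.04 CPM. Neutrophil-like cells had 79.2 CPM in aGVHD, 14.5 CPM in BMT and 20.5 CPM in WT, and without each library's highest cell 57.6, 12.7 and 12.9 CPM. Blood gates without the plasma gate together held 19.96% of Cxcl10 in aGVHD, 6.39% in BMT and 24.5% in WT, a far larger share than for Cxcl9. The plasma gate held 97 Cxcl10 UMIs in 4 aGVHD cells and 0 in 1 WT cell.

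The largest share of Cxcl10 in aGVHD lay in cells that passed no gate. They held 35.9% of its UMIs in aGVHD, 12.3% in BMT and 7.30% in WT, at 1183, 682 and 32.5 CPM. A Cxcl10 UMI was found in 457 of 902 aGVHD cells (50.7%), 106 of 332 BMT cells (31.9%) and 31 of 883 WT cells (3.51%) without a gate, at median depths of 11337.5, 8036 and 5788 UMIs. The 10 genes that most set the ungated aGVHD cells apart from the gated ones by fold began with Muc13, Ptn, F2r, Cd69 and Gm15915. Nfkb1, Kcnq1ot1, Ass1, Dock10 and Fmod followed. Muc13 was found in 41.2% of the ungated aGVHD cells, but Ptn in 6.21% and Fmod in 11.3%. Among the 457 ungated aGVHD cells with Cxcl10, Myb, a transcription factor of haematopoietic progenitors, was found in 70.0%, Kit, the stem cell factor receptor, in 48.4%, and Ptprc, which encodes CD45, in 44.0%. Of the 106 BMT cells with Cxcl10, 67.9% had Myb, 55.7% Kit and 46.2% Ptprc. Over all ungated cells the shares in the same order were 48.0%, 30.0% and 29.0% in aGVHD and 36.4%, 24.7% and 34.9% in BMT. Median depths were 14252 (1 to 19 Cxcl10 UMIs) and 16689 (20 or more) in ungated aGVHD cells, against 3532 UMIs without Cxcl10. In BMT they were 14811 and 16600, against 4004 UMIs. The part of depth in these shares was not tested. Over all ungated cells, the Myb level was 133 CPM (aGVHD) and 149 CPM (BMT), beside 45.8 and 79.0 CPM in the empty droplets, and Kit at 50.04 and 75.3 CPM, beside 18.7 and 24.6 CPM. Ptprc stood at 42.1 and 78.5 CPM, below the droplets of aGVHD (56.04 CPM) and near those of BMT (68.3 CPM). Col1a1, a collagen gene of stroma and bone, was found in 5.25% of the aGVHD and 39.6% of the BMT cells with Cxcl10. The haemoglobin gene Hbb-bs was found in 98.2% and 32.1%. Over all ungated cells Col1a1 stood at 211 and 5892 CPM in aGVHD and BMT, beside 140 and 5549 CPM in the empty droplets. Hbb-bs stood at 4645 and 50.7 CPM, below the 72067 and 12467 CPM of the droplets. Lepr was found in 1.31% of the aGVHD and 16.0% of the BMT cells with Cxcl10, and Cdh5, the endothelial cadherin, in 1.09% and 1.89%. No cell type is given to these cells, because none of the marker gates holds for them.

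In order of level, Cxcl10 in aGVHD was highest in Schwann-like and then LepR stromal-like cells. Myeloid progenitor-like and endothelial-like cells came next with overlapping intervals, followed by fibroblast-like, erythroid-like, megakaryocyte-like and mural-like cells, and T and NK-like and neutrophil-like cells overlapped at the low end. In BMT the order began with LepR stromal-like, Schwann-like and myeloid progenitor-like cells, and endothelial-like and erythroid-like cells overlapped. In WT it began with myeloid progenitor-like, LepR stromal-like and endothelial-like cells.

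The balance of the ligands differed between classes. Since the counts of the 2 genes are not set on a common scale per length, the number of Cxcl9 UMIs per Cxcl10 UMI is compared only between classes and libraries. In LepR stromal-like cells it was 6.76 (6.59 to 6.94) in aGVHD, 6.01 (5.89 to 6.13) in BMT and 1.31 (1.18 to 1.45) in WT. Endothelial-like cells had 1.004 (0.950 to 1.06), 2.30 (2.15 to 2.46) and 1.38 (1.07 to 1.77), and fibroblast-like cells 1.56, 1.43 and 0.0145. Mural-like cells had 2.63 in aGVHD and 9.88 in BMT, where single cells held much of the Cxcl9. Low values were found in erythroid-like and Schwann-like cells, with 0.0605, 0.00732 and 0.0156 in the erythroid-like cells of aGVHD, BMT and WT, and 0.0414 and 0.0223 in the Schwann-like cells of aGVHD and BMT. Cells in no gate had 0.110, 0.321 and 0.0258. The empty droplets held 3569 Cxcl9 to 2426 Cxcl10 UMIs in aGVHD, 4818 to 2112 in BMT and 109 to 234 in WT.

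**Figure D4:**
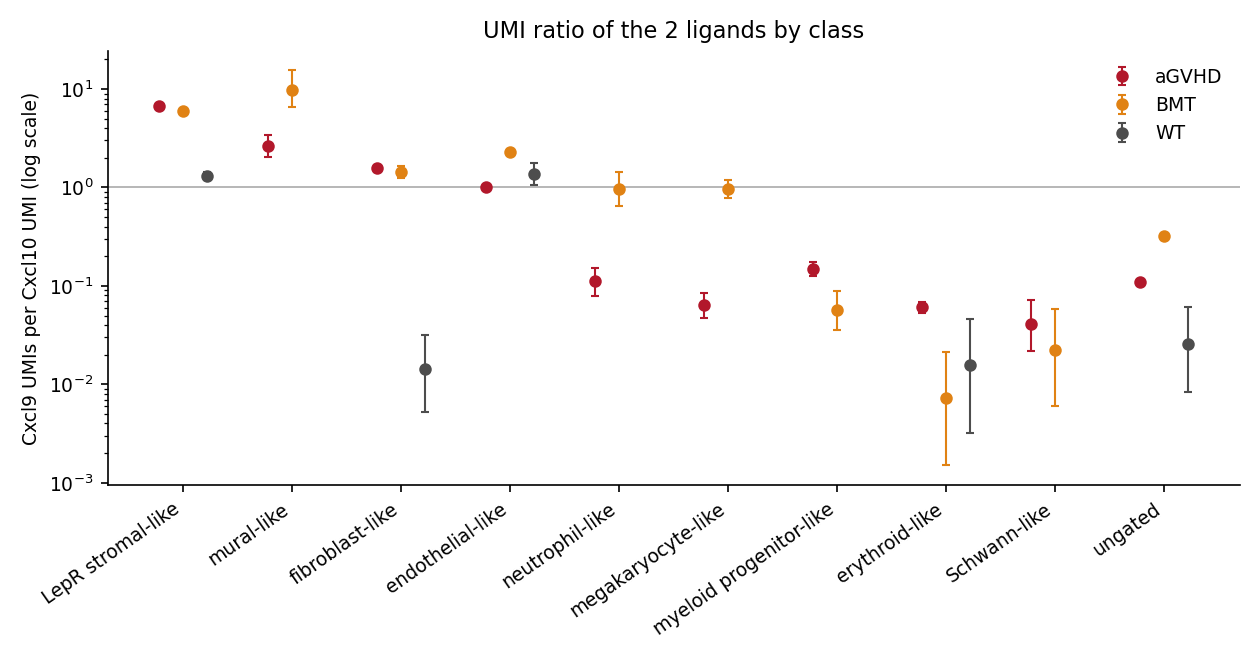
Cxcl9 UMIs per Cxcl10 UMI (log axis) by cell class in the aGVHD, BMT and WT libraries, with exact 95% intervals, drawn where both genes together had at least 50 UMIs. LepR stromal-like cells lie at 6.76 in aGVHD and 6.01 in BMT, endothelial-like cells at 1.004 and 2.30, and erythroid-like cells at 0.0605 and 0.00732.

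Within LepR stromal-like cells thinned to 2000 UMIs, both ligands were found together in 142 of 332 aGVHD cells, 181 of 520 BMT cells and 12 of 961 WT cells. Cxcl10 without Cxcl9 was found in 3, 5 and 58 cells, so that nearly every Cxcl10-bearing cell of the transplanted libraries also had Cxcl9, which nearly all cells had. In WT, 17.1% of cells with Cxcl10 had Cxcl9, against 7.74% of cells without Cxcl10. In endothelial-like cells both were found in 70 of 817 aGVHD, 40 of 667 BMT and 5 of 411 WT cells. Cxcl9 was found in 54.3% of the aGVHD endothelial-like cells with Cxcl10, against 24.1% of those without it, and in 55.6% against 16.1% in BMT. Across thinned LepR stromal-like cells, Pearson's r of the log2 counts was 0.325 over 332 aGVHD, 0.385 over 520 BMT and 0.131 over 961 WT cells, and across endothelial-like cells it was 0.411 over 817, 0.354 over 667 and 0.279 over 411. Cells of 1 library share its preparation and its free RNA, so these values are a description.

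Since Cxcl10 split the LepR stromal-like cells of each transplanted library, the cells with at least 5 Cxcl10 UMIs were set beside those with 0. There were 131 against 125 cells in aGVHD and 174 against 265 in BMT, and the Cxcl10-rich cells were deeper, with medians of 13046 against 10297 and 16205 against 11710 UMIs. Cxcl10-rich cells had 1.97-fold (1.92 to 2.02) the Cxcl9 level of cells without Cxcl10 in aGVHD and 2.26-fold (2.22 to 2.30) in BMT. The median log2 ratio of interferon gamma response genes was 1.09 in aGVHD and 1.15 in BMT over 17 genes each, beside medians over all genes of -0.0078 and -0.054. Gbp5, an interferon-induced GTPase, stood at 420.5 against 113 CPM in aGVHD and 214 against 54.1 CPM in BMT. Cd274, which encodes PD-L1, stood at 79.6 against 27.1 CPM in aGVHD and 73.6 against 12.8 CPM in BMT. Irf1, the interferon gamma-induced transcription factor, stood at 510 against 195 CPM in aGVHD and 590 against 269.9 CPM in BMT. All 3 genes were thus higher in the Cxcl10-rich cells of both libraries.

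Genes of the type I interferon response were higher in Cxcl10-rich cells as well. Over the 11 genes that reached 50 UMIs in both libraries, the median log2 ratio was 0.68 in aGVHD and 0.997 in BMT. Rsad2, which encodes the antiviral protein viperin, stood at 22.2 against 20.4 CPM in aGVHD, a ratio of 1.09 (0.649 to 1.85), and at 86.8 against 7.19 CPM in BMT, a ratio of 12.1 (7.86 to 19.4). Ifit3, another interferon-induced antiviral gene, had ratios of 1.74 (1.26 to 2.45) in aGVHD and 3.85 (3.27 to 4.56) in BMT. Of the 11 shared genes of this list, these 2 were the ones whose intervals did not overlap between the libraries. Genes of other lists also had intervals that did not overlap. Among them were Gbp2 (2.03 in aGVHD and 2.94 in BMT), Iigp1 (1.84 and 2.05) and Serping1 (1.02 and 1.13) of the interferon gamma response. Cxcl9, Ccl5, Cxcl14 and Cxcl12 were others. Ifit1 had ratios of 2.88 in aGVHD and 3.01 in BMT, Isg15 2.48 and 2.75, Xaf1 1.78 and 1.92, Ifi44 1.61 and 1.68 and Irf7 1.34 and 1.35. Another 4 genes of the type I interferon list reached 50 UMIs in BMT alone and are left out of the medians. The NF-kB and TNF list had medians of 0.47 and 0.29 over 10 genes, with Tnfaip3, a feedback inhibitor of NF-kB, 2.85-fold and 2.45-fold higher in the Cxcl10-rich cells. Ifngr1, a chain of the interferon gamma receptor, had ratios of 0.946 (0.819 to 1.09) and 0.875 (0.788 to 0.971), and Cxcl12, the chemokine that marks the class, 0.941 and 0.904. These splits were chosen after the spread of Cxcl10 was seen.

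**Figure D5:**
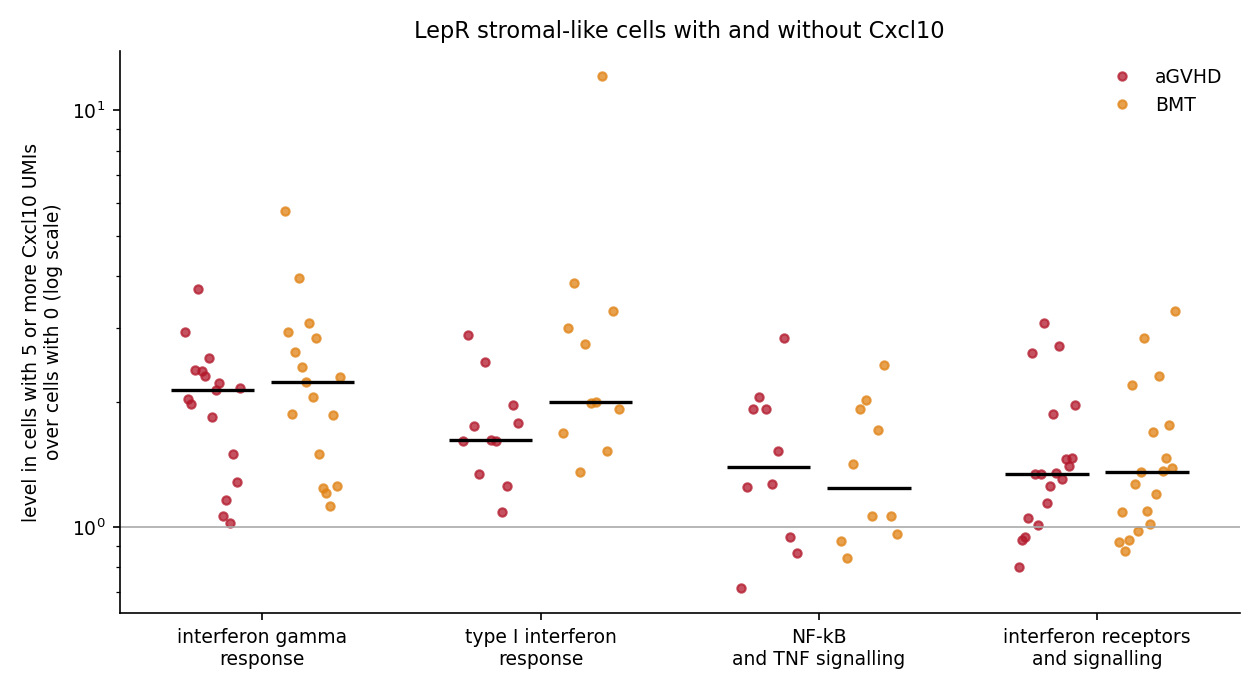
Ratio of each gene's level (log axis) in LepR stromal-like cells with at least 5 Cxcl10 UMIs over those with 0, by gene list, in the aGVHD and BMT libraries, where each point is a gene with at least 50 UMIs in both libraries, black bars are list medians and the grey line marks a ratio of 1. On the log2 scale the interferon gamma response medians are 1.09 (aGVHD) and 1.15 (BMT) and the type I interferon response medians 0.68 (aGVHD) and 0.997 (BMT).

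A size rule was applied to all genes. It asked for 50 or more UMIs in the 2 libraries together, a ratio of 2-fold or more whose interval left out 1, and, in the higher library, a level 2 or more times that of its empty droplets. In LepR stromal-like cells Cxcl9 and Cxcl10 both passed it as higher in BMT than in WT, as did 2.81 percent of all genes tested, while 0.828 percent were lower. Both also passed as higher in aGVHD than in WT, as did 3.51 percent, with 3.76 percent lower. Neither passed for aGVHD over BMT, where 1.45 percent of genes were called higher in aGVHD and 3.76 percent lower. In endothelial-like cells neither passed in any comparison. The level of the higher library was always less than 2 times that of its droplets, and Cxcl9 for aGVHD over BMT also fell short of 2-fold. Without the droplet requirement both were higher than WT in endothelial-like cells, as were 4.91 percent of genes for BMT and 5.75 percent for aGVHD, and Cxcl10 was higher in aGVHD than in BMT, as were 2.64 percent. The ligands were chosen on these values, and nothing is read from the counts.

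Genes of the interferon gamma response list, which includes the GTPases Gbp2 to Gbp7 and Iigp1 and the antigen-processing genes, accompanied the ligands. In LepR stromal-like cells 3 of 17 tested members were called higher in aGVHD than in BMT, beside 1.45 percent of all genes. In BMT 7 of 17 were called higher than in WT, beside 2.81 percent, and in aGVHD 8 of 17, beside 3.51 percent. None was called lower, beside 3.76, 0.828 and 3.76 percent of all genes in the same order. The list medians were 0.48, 2.93 and 3.31 (log2) beside all-gene medians of -0.13, 0.12 and -0.006. In endothelial-like cells 12 of 18, 6 of 17 and 15 of 18 members were called higher, beside 1.43, 2.72 and 3.91 percent of all genes, and none lower, beside 2.04, 1.88 and 3.23 percent, with list medians of 1.17, 2.06 and 3.52. Gbp2 stood at 1052 CPM in aGVHD, 436 CPM in BMT and 36.7 CPM in WT LepR stromal-like cells and at 965, 192 and 39.7 CPM in endothelial-like cells. Iigp1 stood at 2526, 2359 and 171 CPM in LepR stromal-like cells and at 973, 724 and 178 CPM in endothelial-like cells. Psmb8, an immunoproteasome subunit, stood at 703, 641 and 260.5 CPM and at 1128, 530 and 166 CPM in the same classes. Without the droplet requirement the LepR stromal-like counts were 4, 15 and 15 of 17, beside 2.68, 5.6 and 5.74 percent of all genes. The Gbp genes are paralogs, and how any reads shared between them were counted is not stated in the sources used here. The list median of the aGVHD over BMT ratio was thus higher in endothelial-like cells than in LepR stromal-like cells, as was the ratio of Cxcl10 but not that of Cxcl9. This list, like those below, was chosen with earlier results of these data known, so its counts are a description.

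The type I interferon response list had another pattern. Of the 15 members tested in LepR stromal-like cells, 0 were called higher in aGVHD than in BMT, beside 1.45 percent of all genes, and 2, Ifit3 and Mx1, lower, beside 3.76 percent, with a list median of -0.40. Against WT, 7 of 15 were higher in BMT, beside 2.81 percent of all genes, and 7 of 14 in aGVHD, beside 3.51 percent, with medians of 3.08 and 2.61. In endothelial-like cells 0 of 14, 6 of 14 and 5 of 12 were called higher, beside 1.43, 2.72 and 3.91 percent of all genes, with medians of -0.19, 2.10 and 1.98. Irf7, the regulator of type I interferon genes, stood at 237 CPM in aGVHD, 275 CPM in BMT and 22.8 CPM in WT LepR stromal-like cells, and Isg15, a ubiquitin-like interferon product, at 124, 221 and 59.1 CPM.

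Of the interferon receptor and signalling list, 0 of 20 tested members were called in LepR stromal-like cells for aGVHD over BMT, beside 1.45 percent of all genes higher and 3.76 percent lower. Against WT, 3 of 20 were called higher in BMT, Stat2 and Irf7 among them, beside 2.81 percent of all genes. In aGVHD 4 of 20 were called higher than in WT, Stat2, Irf7 and Irf8 among them, beside 3.51 percent, while Socs3, a feedback inhibitor, was called lower, beside 3.76 percent. Stat2, a subunit of the ISRE-binding complex, stood at 107 CPM in aGVHD, 95.5 CPM in BMT and 29.1 CPM in WT, and Irf1 at 343, 401 and 346 CPM. In endothelial-like cells 1 of 20 (Irf8), 0 of 20 and 6 of 20 were called higher, beside 1.43, 2.72 and 3.91 percent of all genes. No member of the NF-kB and TNF list was called in either class in any comparison, over 10 members in LepR stromal-like and 11 in endothelial-like cells. By comparison and direction, 0.828 to 3.76 percent of all genes were called in LepR stromal-like and 1.43 to 3.91 percent in endothelial-like cells. With so few members a count of 0 is near these shares, and nothing is read from it. Nfkbia, the NF-kB inhibitor, stood at 672.5 CPM in aGVHD, 574 CPM in BMT and 935 CPM in WT LepR stromal-like cells.

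Other CXC and CX3C chemokines differed among themselves. Of 9 tested in LepR stromal-like cells, 2 (Cxcl5 and Cxcl13) were called lower in aGVHD than in BMT, beside 3.76 percent of all genes, and higher in BMT than in WT, beside 2.81 percent. Cxcl13 and Cxcl16 were called higher in aGVHD than in WT, beside 3.51 percent. Cxcl12 stood at 14118 CPM in aGVHD, 17467 CPM in BMT and 25514 CPM in WT, and Cxcl14 at 1716, 2070 and 2982 CPM. Cxcl1, a neutrophil attractant, stood at 417, 512 and 565 CPM. All 3 were lower in aGVHD than in WT, with ratios of 0.553, 0.575 and 0.737, none past the 2-fold limit. Of the Cxcr3 axis list, Pf4, a platelet chemokine reported to bind a CXCR3 variant in human, stood at 13.6, 5.51 and 14.2 CPM in LepR stromal-like cells, below the 1508, 380 and 377 CPM of the empty droplets. Ackr3, a scavenging receptor of chemokines, stood at 131, 72.6 and 73.6 CPM in endothelial-like cells, and Dpp4, the peptidase that trims both ligands, at 0.485, 1.21 and 2.13 CPM in LepR stromal-like cells. Cxcl11, the other known ligand, was not analysed here. Of 14 other chemokine receptors, 3 were tested in endothelial-like cells against WT, and 1 in LepR stromal-like cells for aGVHD over BMT. Ackr1, the scavenger on venular endothelium, stood at 22.2 CPM in aGVHD, 28.6 CPM in BMT and 220 CPM in WT endothelial-like cells. It was called lower than in WT in BMT, beside 1.88 percent of all genes, and in aGVHD, beside 3.23 percent. Cx3cr1, the fractalkine receptor, was called higher in aGVHD than in BMT in LepR stromal-like cells, with 8.49 and 2.15 CPM. There 1.45 percent of all genes were called higher. With so few members tested, nothing is read from these calls.

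Across 30 points of class and library with at least 50 cells, the genes whose log2(CPM + 10) was most like that of Cxcl9 among 11962 genes were Irgm2 (r 0.943), Iigp1 (0.934), Mlkl (0.899), Gbp2b (0.894) and Olfr56 (0.877). For Cxcl10 they were Gbp3 (0.827), Gbp5 (0.817), Iigp1 (0.798), Igtp (0.797) and Mlkl (0.796). Cxcl9 and Cxcl10 had r 0.752 with each other and a rank correlation of 0.709. Iigp1 and Mlkl stood in both sets. Points of 1 library share its free RNA and depth, and points of 1 class share its identity, so these values describe likeness of pattern only.

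Cxcr3 was rare in these libraries. The called cells held 21 Cxcr3 UMIs in aGVHD, 15 in BMT and 39 in WT, of which T and NK-like cells held 15, 6 and 32. LepR stromal-like cells had none in any library. A floor of 3 cells would be 0.877%, 0.560% and 0.299% of the class in aGVHD, BMT and WT, and is not an interval limit. Empty droplets held 0, 3 and 6 Cxcr3 UMIs. In BMT, neutrophil-like cells held another 5 of the 15. T and NK-like cells thus held most of the receptor RNA in aGVHD and WT, but not in BMT.

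T and NK-like cells numbered 65 in aGVHD, 22 in BMT and 57 in WT, with median depths of 4728, 6324 and 5350 UMIs. Cxcr3 was found in 11 of 65 (16.9%, 8.76 to 28.3), 5 of 22 (22.7%, 7.82 to 45.4) and 19 of 57 (33.3%, 21.4 to 47.1), at 37.0 CPM (20.7 to 61.1), 38.4 CPM (14.1 to 83.6) and 67.3 CPM (46.0 to 94.96). The ratio of aGVHD to BMT was 0.964 (0.353 to 3.03), that of BMT to WT 0.571 (0.195 to 1.39) and that of aGVHD to WT 0.551 (0.277 to 1.05). A difference in Cxcr3 between the libraries was not detectable at this number of cells. Since the sort depleted CD45-stained cells, those that remained are not a sample of the marrow's T cells.

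The T and NK-like cells carried effector genes. Ifng, which encodes interferon gamma, was found in 27 of 65 aGVHD, 2 of 22 BMT and 23 of 57 WT cells, at 185, 12.8 and 120 CPM. Ccl5, an effector T cell chemokine, was found in 52, 22 and 46 cells and Gzmb, a cytotoxic granule protease, in 32, 8 and 27. Cd8a was found in 31, 14 and 24 cells and Ncr1, an NK cell receptor, in 0, 0 and 2, so T cell markers outnumbered NK markers. Among WT cells, Ifng was found in 13 of 19 with Cxcr3, against 10 of 38 without it. In aGVHD it was found in 5 of 11 with Cxcr3, against 22 of 54 without, and in BMT in 0 of 5, against 2 of 17. Such shares rest on few cells and move with depth, and no order is read from them.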

How the data were processed

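Single-cell RNA was measured in 3 libraries of sorted mouse marrow cells, 1 per group. The authors deposited raw counts, whole numbers of UMIs per gene and barcode with empty droplets included. Per the submitters' processing notes they used Cell Ranger, Seurat and the mm10 build, and Cell Ranger 3.1.0 wrote the matrices, per the file headers. Library totals were 67439098 UMIs for aGVHD, 44219063 for BMT and 86575425 for WT. The members and gene lists were chosen with earlier results of these data known.

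Cells were called at 1000 UMIs, 500 genes and 10% mitochondrial UMIs, which removed 548 aGVHD, 253 BMT and 544 WT barcodes on the last limit. A cell passed 1 of 18 gates with at least 3 detected markers, 4 marker UMIs and a marker share at or above that of its library's empty droplets. Clusters and the authors' annotation were not used, so class names are resemblances. Mixed barcodes, which include doublets, were kept apart. No doublet caller was applied otherwise, and removal of the highest Scrublet scores was an alternative. UMIs were summed per class and library and given as CPM. A count of 0 was set to a floor of 3 UMIs. Free RNA was estimated from neutrophil and haemoglobin genes in classes outside the blood gates. Genes named are the members, the list members with the most UMIs over LepR stromal-like and endothelial-like cells, and the 5 genes most correlated with each ligand. Other genes named in the split by Cxcl10, in the T and NK-like cells and in the cells of no gate, and Ifit3 and Mx1, were chosen after their values were seen. The size rule was tested on simulated counts. PCR copies are collapsed by UMIs, and the number of mice behind each library is unknown here. Alternatives changed the depth and mitochondrial limits, the gate, mixed barcodes, doublets, the scaling, free RNA, the thinning, the empty droplets and the size rule. Versions were Python 3.11.15, numpy 2.4.6, scipy 1.17.1, pandas 2.3.3, scanpy 1.11.5 and matplotlib 3.10.9. The values of 1 gene are not reported here.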

Additional observations from a re-analysis of the deposited data

Results flagged for a closer look

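The ratio of Cxcl9 in aGVHD to BMT was above 1 in LepR stromal-like cells, at 1.18 (1.17 to 1.19), and below 1, with intervals that exclude 1, in megakaryocyte-like, chondrocyte-like, neutrophil-like and monocyte- and macrophage-like cells. These opposite directions drew attention, and the difference between classes was not tested, since each group is 1 library. In megakaryocyte-like cells the ratio was 0.107 (0.0760 to 0.148), from 17.2 CPM in aGVHD and 161 CPM in BMT, but a single BMT cell held 155 of 168 UMIs. Without each library's highest cell the levels were 12.3 CPM in aGVHD and 12.7 CPM in BMT. In chondrocyte-like cells the ratio was 0.0657 (0.00784 to 0.244), from 2 aGVHD and 90 BMT UMIs, of which 87 were in 1 BMT cell. In neutrophil-like cells the ratio was 0.628 (0.414 to 0.951), from 45 UMIs in 646 aGVHD cells and 54 UMIs in 717 BMT cells, with no cell above 5 UMIs. In monocyte- and macrophage-like cells it was 0.120 (0.0143 to 0.444), from 2 UMIs in 2 aGVHD cells and 94 UMIs in 2 BMT cells. The empty droplets also held less Cxcl9 in aGVHD than in BMT, at 889 and 1395 CPM, and the part of free RNA in the neutrophil-like ratio was not tested.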

How the results depend on the processing

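No paired analysis was possible because each group is 1 library and the labels give no replicate numbers, and leaving out a replicate was not possible for the same reason. Alternatives for the ligand ratios were run in LepR stromal-like and endothelial-like cells only, so the ratios of fibroblast-like and all other classes were not checked in this way. None of the ratios run moved by over 1.5 times, and the endothelial-like Cxcl9 ratio of aGVHD to BMT was the one that crossed 1. Cxcl9 in LepR stromal-like cells stood between 1.18 and 1.25 for aGVHD over BMT, between 60.3 and 81.9 for BMT over WT and between 71.5 and 98.7 for aGVHD over WT. The values beyond the counting interval were 1.21, 81.9 and 98.7 in that order with mixed barcodes kept, 1.25 without mitochondrial, ribosomal and haemoglobin genes, 1.25 with the empty-droplet profile subtracted and 60.3 for BMT over WT with the highest Scrublet scores removed, 248 aGVHD, 105 BMT and 407 WT cells. Cxcl10 in these cells gave 1.16, 15.4 and 17.8 with mixed barcodes kept. It gave 1.14 (aGVHD over BMT) and 16.1 (aGVHD over WT) with the stricter gate, 1.11 and 1.09 (aGVHD over BMT) without those genes and with the profile subtracted, and 13.0 (BMT over WT) without the Scrublet cells. In endothelial-like cells the Cxcl9 ratio of aGVHD to BMT, 0.978 with an interval that holds 1, was above 1 with intervals that leave out 1 at 1.07 with at least 2000 UMIs, 1.12 under 5% mitochondrial UMIs and 1.10 with mixed barcodes, so it has no stable direction, and aGVHD over WT was 13.1 under 5%. Cxcl10 for aGVHD over BMT was 2.44 with at least 2000 UMIs and 2.42 under 5%.

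Shares of cells with a ligand depend on depth by construction. Thinned to 1000 UMIs, Cxcl9 was found in 90.9%, 89.6% and 4.79% of aGVHD, BMT and WT LepR stromal-like cells and in 18.1% and 16.1% of aGVHD and BMT endothelial-like cells, and without thinning in 98.2%, 97.8% and 13.1%, and in 28.4% of BMT endothelial-like cells. Cxcl10 was found in 34.2%, 28.9% and 5.29% and in 10.3%, 6.85% and 2.15% at 1000 UMIs, and without thinning in 63.5%, 50.6% and 11.9% and in 15.6% of BMT endothelial-like cells. In droplets of 10 to 50 UMIs Cxcl9 was 935 CPM for aGVHD and 1564 CPM for BMT, Cxcl10 715 and 882 CPM, and Cxcr3 2.31 CPM for WT.

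Without the requirement against empty droplets, 273 genes in LepR stromal-like cells were higher and 680 lower in aGVHD than in BMT (147 and 382 with it), 588 and 345 in BMT than in WT (295 and 87), and 567 and 747 in aGVHD than in WT (347 and 371). In endothelial-like cells the counts were 241 and 367 (131 and 186), 436 and 464 (242 and 167), and 637 lower in aGVHD than in WT (283). With at least 20 UMIs, 260 genes were lower in BMT than in WT. Without the requirement against empty droplets, type I interferon members called higher in LepR stromal-like cells were 0 of 15 (aGVHD over BMT), 15 of 15 (BMT over WT) and 13 of 14 (aGVHD over WT). Beside these counts, 2.68, 5.6 and 5.74 percent of all genes were called higher, in the same order.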

Other observations

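A few values belong to no comparison above. Osteolineage-like cells had 384 Cxcl10 UMIs in 92 BMT cells (116 CPM) and 3 UMIs in 179 WT cells, and the gate found 10 aGVHD cells of this class. B lineage-like cells had 163 Cxcl10 UMIs in 208 BMT cells (153 CPM) and 4 UMIs in 218 WT cells, but 1 BMT cell held 143 of the 163, without which the BMT level was 19.1 CPM, and 5 aGVHD cells passed that gate. Ccl5, an effector T cell chemokine, stood at 180 CPM in aGVHD, 161 CPM in BMT and 2.45 CPM in WT LepR stromal-like cells, beside 171, 208 and 116 CPM in the empty droplets.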
